A study of Mus musculus with 82 samples.

Results

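U46619 was added to EGF for 24 h in primary cultures of mouse aortic vascular smooth muscle cells (aVSMC), and the EGF+U46619 cultures are compared here with the EGF cultures of the same mice. The comparison takes 12 of the 82 RNA-sequencing libraries of the study, namely the 6 EGF and the 6 EGF+U46619 libraries among the 42 libraries of 24 h, chosen by their treatment labels and paired by mouse number. It covers the 48326 of 55401 genes in the table that lie outside chromosomes 9, X, Y and the mitochondrial chromosome. The cells came from the aortas of C57BL/6 mice, had passed through up to 7 passages and were cultured in a medium with serum and EGF. They were then kept without serum and supplements for 24 h before EGF at 10 µg/L, alone or with U46619 at 1 µM, was given for 24 h. Each of the 6 mice gave 1 culture per group, and mice 1 to 6 are the replicate numbers of the labels. Neither group received angiotensin II (AngII). The control cultures of the side comparison below received no agonist.

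U46619 is a stable analog of thromboxane A2 and activates its receptor TP, which couples in smooth muscle to the G proteins of the Gq and G12/13 families, raises calcium, activates RhoA and contracts the cell. EGFR is a receptor tyrosine kinase that signals through the ERK and AKT pathways to growth and division, and G protein-coupled receptors can activate it through the shedding of its ligands. The comparison asks what TP activation adds when EGFR is stimulated at the same time.

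The values are counts of reads on the exons of each gene, given as FPM (counts per 1000000 counts of the library, after TMM scaling in edgeR). The total count per library lay between 18785876 and 20818809 with EGF (median 19709106.5) and between 19292440 and 20594473 with EGF+U46619 (median 19794289.5). Every one of the 7075 genes on chromosomes 9, X and Y and on the mitochondrial genome has a count of 0 in each library, as have the 657 genes of chromosome 8 that start after position 97876154 (GRCm38). They are treated as not measured, among them the smooth muscle genes Cnn1 and Tagln, so the smooth muscle label rests on other markers. Acta2, smooth muscle actin, lay at 352 to 8497 FPM with EGF (median 1513) and 1631 to 12297 FPM with EGF+U46619 (median 9416). Myh11, the smooth muscle myosin heavy chain, lay at 0.614 to 110.0 FPM with EGF (median 20.1) and 1.43 to 213 FPM with EGF+U46619 (median 26.5), and was thus low in some of the cultures.

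With U46619 added, most listed genes of glycolysis and of ribosome biogenesis were higher, most of those of small matrix proteoglycans and adventitial fibroblasts were lower, and the contractile genes were higher and the collagens lower only in part. This holds for the fit of all mice. Without 1 mouse the higher genes of ribosome biogenesis fell to 19 of 44 (mouse 2) and the lower proteoglycans to 3 of 7 (mouse 1). The lower fibroblast markers fell to 7 of 15 without mouse 4 or 5. Without the block these lists and glycolysis held 2, 2, 1 and 3 DEG, and the contractile genes and the collagens held 0. After 24 h, 1932 genes differed between EGF+U46619 and EGF, 1022 of them higher and 910 lower with EGF+U46619 (n = 6 cultures each). A gene that differed, called a DEG here, fell under an FDR of 0.05 by quasi-likelihood in edgeR and by the Wald test of DESeq2, and averaged 5 FPM or more in 1 group. FDR values below are those of edgeR unless DESeq2 is named, and SE is the standard error of a log2-fold change. In all, 10325 genes could be called by these criteria. The DEG were 18.7% of them, the higher ones 9.9% and the lower ones 8.81%, and these shares are the background for every list below. The lists were chosen with earlier results of these data known, so their shares and ranks are descriptions and not tests. The median log2-fold change over the 10325 genes was 0.04, against 0.64 for the higher and −0.79 for the lower DEG. The log2-fold change was at least 1 for 215 DEG and at most −1 for 313, and it was at least 2 for 29 and at most −2 for 60. In 6 of 6 mice, 759 DEG were higher and 617 lower, together 71.2% of the DEG, against 21.8% of the 10325 genes. The 2 groups did not overlap in FPM for 94 DEG, where 106 of all genes that could be called (1.03%) did not overlap.

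The response varied among the mice. The median log2 difference over the higher DEG was 0.83 in mouse 1, 1.07 in mouse 2, 0.33 in mouse 3, 0.62 in mouse 4, 0.55 in mouse 5 and 0.32 in mouse 6. Over the lower DEG it was −1.11, −1.27, −0.43, −0.66, −0.79 and −0.30 in the same order. Mice 1 and 2 thus responded most and mice 3 and 6 least. The fit had the mouse as a block, as in the study's own design. As a check, each EGF culture resembled the EGF+U46619 culture of its own mouse most, in 6 of 6 mice. Without the block the count was 105, 70 higher and 35 lower, all of them among the 1932. The count also depended on single mice. It was 1066 without mouse 1, 723 without mouse 2, 1093 without mouse 4 and 1062 without mouse 5. Genes named below as higher or lower were also DEG in each fit that left out 1 mouse unless the text names the mouse, with the log2-fold change without it in parentheses. Other values in parentheses after a gene are its log2-fold change, and medians of lists are medians of log2-fold changes. List medians near 0 changed their sign or size without 1 mouse and are left to the figure. Of the DEG chosen by the naming rules, 18 of 144 were DEG without the block.

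**Figure D1:**
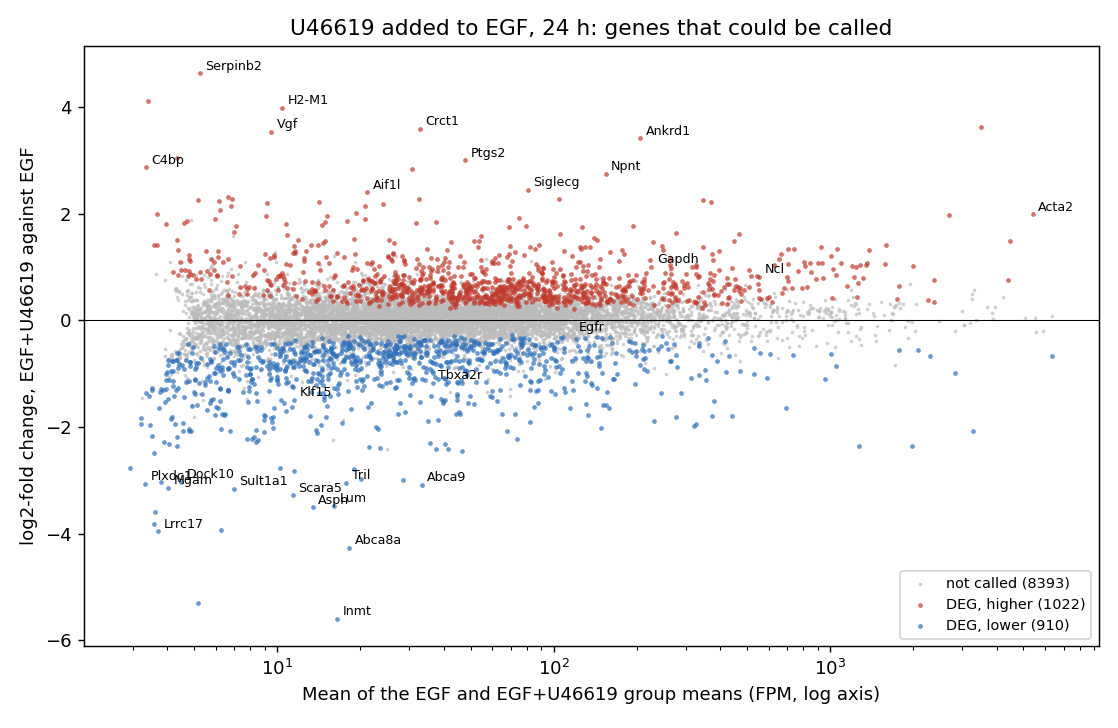
Log2-fold change of EGF+U46619 against EGF (vertical axis) against the mean of both group means in FPM (horizontal log axis) for the 10325 genes that could be called after 24 h. Red points are the 1022 higher and blue points the 910 lower DEG, grey points the other genes, and the labels give named genes, with Serpinb2 at 4.64 and Inmt at −5.600.

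Among DEG changed the same way in 6 of 6 mice, genes for a protease inhibitor, secreted proteins and an enzyme of inflammation were among the 12 largest increases. Serpinb2 (chromosome 1, 107511423 to 107535478), an inhibitor of urokinase, lay at 0 to 0.860 FPM with EGF (median 0.157) and 1.37 to 31.4 FPM with EGF+U46619 (median 5.47). Serpinb2 levels in the groups did not overlap, although every EGF culture held under 1 FPM, where folds are imprecise. Serpinb2 had a log2-fold change of 4.64 ± 0.79 (SE, FDR = 0.000269). Vgf (chromosome 5, 137026392 to 137033351), which encodes a secreted neuropeptide precursor, lay at 0.672 to 2.21 FPM with EGF (median 1.49) and 5.16 to 34.3 FPM with EGF+U46619 (median 15.6). No EGF+U46619 culture was as low as any EGF culture. For Vgf the log2-fold change was 3.54 ± 0.35 (SE, FDR = 7.86e-08). Npnt (chromosome 3, 132881745 to 132950291), for the matrix protein nephronectin, an integrin ligand, lay at 7.97 to 76.0 FPM with EGF (median 26.9) and 82.7 to 709.6 FPM with EGF+U46619 (median 178.8). These groups were likewise apart in all mice, with a log2-fold change of 2.75 ± 0.55 (SE, FDR = 0.00103). H2-M1 (3.98) and Siglecg (2.46) were the other genes among these 12 without overlap.

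Ptgs2 (chromosome 1, 150100031 to 150108227), the inducible cyclooxygenase COX-2, lay at 0.907 to 42.4 FPM with EGF (median 10.1) and 25.1 to 198 FPM with EGF+U46619 (median 60.1). Ptgs2 was higher in 6 of 6 mice, and the groups overlapped through mouse 3, which had the highest level with EGF. Ptgs2 had a log2-fold change of 3.01 ± 0.70 (SE, FDR = 0.00327). Crct1 (3.59) and Aif1l (2.40), an actin-binding protein, were also DEG without each mouse. C4bp, which encodes a complement inhibitor, had a log2-fold change of 2.88 and was no longer a DEG without mouse 4 (3.27).

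The 12 largest decreases among DEG lower in 6 of 6 mice included genes of adventitial fibroblasts, of small proteoglycans of the matrix and of lipid transport. Abca8a (chromosome 11, 110025634 to 110095978), a transporter of the ABC family, lay at 5.43 to 107 FPM with EGF (median 22.3) and 0.307 to 1.98 FPM with EGF+U46619 (median 0.876). Abca8a levels in the groups did not overlap, and the level was under 2 FPM in each EGF+U46619 culture. Abca8a had a log2-fold change of −4.26 ± 0.64 (SE, FDR = 5.42e-05). Aspn (chromosome 13, 49544443 to 49567565), for the small proteoglycan asporin, lay at 4.44 to 61.7 FPM with EGF (median 17.5) and 0.690 to 3.15 FPM with EGF+U46619 (median 1.68). The EGF+U46619 cultures of all mice were lower than every EGF culture, with a log2-fold change of −3.50 ± 0.44 (SE, FDR = 7.7e-06). Inmt (chromosome 6, 55170626 to 55175043), an N-methyltransferase, lay at 0.398 to 143 FPM with EGF (median 2.60) and 0 to 1.43 FPM with EGF+U46619 (median 0.204). It was high with EGF in mice 1 and 2 and under 4 FPM in the others, so the groups overlapped. The log2-fold change of Inmt, −5.600 ± 0.89 (SE, FDR = 9.24e-05), thus comes from a level that differed widely among the mice. The other decreases that held without each mouse were those of Lrrc17 (−3.96), Lum (−3.47), for the proteoglycan lumican, Scara5 (−3.28), a scavenger receptor, Sult1a1 (−3.16), a sulfotransferase, Abca9 (−3.08), Tril (−3.05), an accessory protein of Toll-like receptors, and Dock10 (−3.02), an exchange factor for small G proteins. Mgam had a log2-fold change of −3.14, and ceased to be a DEG without mouse 2 (−1.52) or 4 (−3.43). Plxdc1, at −3.06, was no longer one without mouse 1 (−2.55) or 3 (−4.48).

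**Figure D2:**
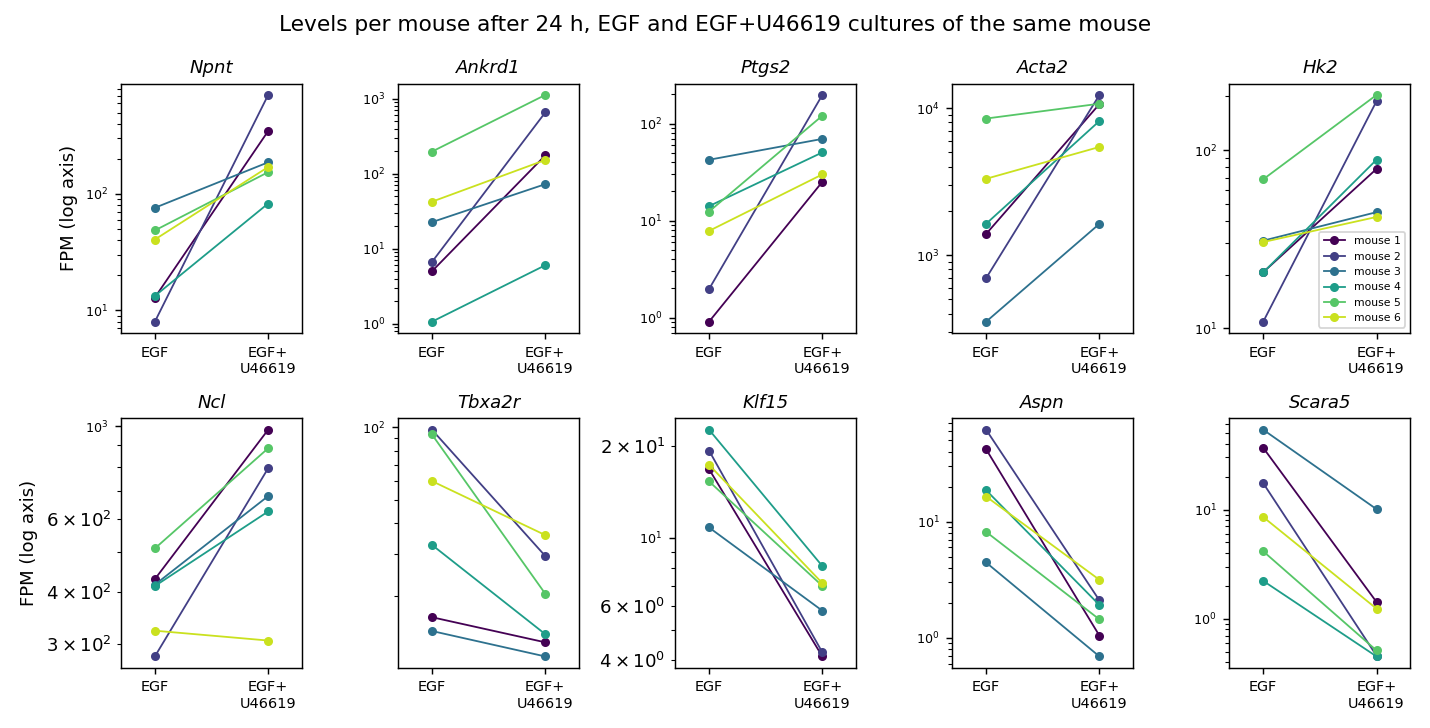
Levels in FPM (vertical log axes, 1 panel per gene) in the EGF and EGF+U46619 cultures after 24 h, with a line per mouse. The lines rise in 6 of 6 mice for Npnt, Ankrd1, Ptgs2, Acta2 and Hk2 and in 5 of 6 for Ncl, and fall in 6 of 6 for Tbxa2r, Klf15, Aspn and Scara5.

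Among TP, EGFR and the G proteins and effectors listed with them, only the gene of TP was a DEG. Tbxa2r (chromosome 10, 81328731 to 81335172), the gene of TP, lay at 14.4 to 97.7 FPM with EGF (median 46.2) and 11.3 to 35.8 FPM with EGF+U46619 (median 17.2). Tbxa2r was lower in 6 of 6 mice, while the groups overlapped, since the EGF cultures of mice 1, 3 and 4 lay within the range of the EGF+U46619 cultures. Tbxa2r had a log2-fold change of −1.17 ± 0.32 (SE, FDR = 0.0117), and ceased to be a DEG without mouse 2 (−1.05) or 5 (−0.93). Egfr lay at 18.7 to 226 FPM with EGF (median 156.5) and 28.1 to 164.5 FPM with EGF+U46619 (median 109.9). Egfr was higher in 3 and lower in 3 of the 6 mice, with a log2-fold change of −0.26 ± 0.23 (SE, FDR = 0.488), which did not pass. Agtr1a, the gene of the main angiotensin II receptor of mouse vessels, stayed under 5 FPM on average and could not be called. In a list of 16 receptors, G proteins and their direct effectors, 11 could be called, Tbxa2r was lower and 0 were higher. The count of lower genes in this list was 0 without mouse 2 or 5 and 2 without mouse 3 or 6. Gna11, its most abundant member, had a log2-fold change of 0.05 and was not a DEG.

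Among 8 regulators of G protein signaling that could be called, proteins that switch off G protein subunits, Rgs16 was higher and Rgs5 and Rgs2 were lower, with a median of −0.25, and −0.01 with a minimum of 10 counts and −0.08 without mouse 2. Rgs16 lay at 1.54 to 104 FPM with EGF (median 21.6) and 8.74 to 304 FPM with EGF+U46619 (median 60.3). Rgs16 was higher in 5 of 6 mice and the groups overlapped, with a log2-fold change of 1.92 ± 0.40 (SE, FDR = 0.00161). Rgs5, a marker of pericytes and smooth muscle, lay at 0 to 275 FPM with EGF (median 22.96) and 0.0511 to 52.8 FPM with EGF+U46619 (median 2.72). Only the cultures of mice 4, 5 and 6 held more than 1 FPM, and in these it was lower with EGF+U46619. Its log2-fold change was −2.46 and that of Rgs2, −1.38, no longer passed without mouse 4 (−1.21) or 6 (−1.04). The count of higher genes was 2 without mouse 3, and that of lower genes was 1 without mouse 4 or 6.

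Of 17 genes that restrain ERK signaling and could be called, 4 were higher and 2 lower, only the latter near the 8.81% of all genes. Spry1, which encodes a feedback inhibitor of receptor tyrosine kinases, lay at 43.8 to 285 FPM with EGF (median 83.3) and 20.5 to 62.1 FPM with EGF+U46619 (median 22.95). Spry1 was lower in 6 of 6 mice and the groups overlapped, because the EGF+U46619 culture of mouse 1 lay above the EGF cultures of mice 3 and 4. Spry1 had a log2-fold change of −1.91 ± 0.24 (SE, FDR = 7.7e-06). Spry4, of the same family, had a log2-fold change of −1.71 and was no longer a DEG without mouse 1 (−1.29) or 2 (−1.36). Dual-specificity phosphatase genes were higher, namely Dusp10 (1.40), Dusp5 (1.12, no DEG without mouse 2 (0.89) or 5 (0.98)) and Dusp1 (0.74, no DEG without mouse 2 (0.49), 4 (0.76) or 5 (0.75)). Spred3 (0.65) was no DEG without mouse 2 (0.48), 4 (0.66) or 5 (0.55). Dusp6, a phosphatase that acts on ERK, lay at −0.34 and was not a DEG. The higher genes numbered 1 without mouse 2 or 5, 7 without mouse 3 and 2 without mouse 4, and the lower ones 1 without mouse 1 or 2.

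Of 9 EGFR ligand and sheddase genes, 5 could be called and 2 were higher. Hbegf, for the ligand HB-EGF that metalloproteases release from the membrane, lay at 6.48 to 82.8 FPM with EGF (median 50.5) and 31.3 to 159.4 FPM with EGF+U46619 (median 76.5). It was low with EGF in mice 1 and 2 and the groups overlapped, while it was higher with EGF+U46619 in 5 of 6 mice. Hbegf had a log2-fold change of 1.39 ± 0.34 (SE, FDR = 0.00522). Ereg, for epiregulin, had a log2-fold change of 0.88 and was no longer a DEG without mouse 2 (0.69), 4 (0.90) or 5 (0.86). The count of higher ligands was 1 without mouse 2, 4 or 5. Among 8 genes of prostanoid synthesis and receptors that could be called (median 0.25, and 0.13 without the block and 0.15 without mouse 4), Ptgs2 was higher and Ptgir, the prostacyclin receptor, was lower. Ptgir lay at 6.62 to 79.6 FPM with EGF (median 16.7) and 1.29 to 7.24 FPM with EGF+U46619 (median 2.91). Ptgir was lower in 6 of 6 mice, the groups overlapped, and its log2-fold change was −2.79 ± 0.43 (SE, FDR = 9.12e-05). Ptgs1 (0.16) and Ptgis (0.34), the constitutive cyclooxygenase and prostacyclin synthase, were not DEG. The numbers of higher and lower prostanoid genes were 2 without mouse 6 and 2 without mouse 3.

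Genes of the contractile apparatus were higher in part. Of 23 that could be called, 8 were higher and 0 lower, with a median log2-fold change of 0.49, and 0.32 without mouse 2, where all genes had 0.04. Acta2 rose in 6 of 6 mice, with overlap, as the EGF+U46619 culture of mouse 3 lay below the EGF cultures of mice 4, 5 and 6, and its log2-fold change was 1.99 ± 0.40 (SE, FDR = 0.00102). Actg2, the gamma actin of smooth muscle, lay at 2.36 to 356 FPM with EGF (median 75.9) and 23.3 to 2593 FPM with EGF+U46619 (median 146). Actg2 was higher in 6 of 6 mice and the groups overlapped. Actg2 had a log2-fold change of 2.22 ± 0.41 (SE, FDR = 0.000565). Tpm2, a tropomyosin, had one of 1.15 and was no longer a DEG without mouse 2 (0.86). Myh11 had a log2-fold change of 0.18 ± 0.48 (SE, FDR = 0.845) and was not a DEG. The list summed to 2333 to 17623 FPM with EGF (median 5047) and 4362 to 25999 FPM with EGF+U46619 (median 15197), with Acta2 as its most abundant gene. The count of higher genes was 4 without mouse 1 or 4 and 3 without mouse 2, and the count of lower ones was 1 without mouse 3.

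Among 20 genes known as targets or partners of the coactivators YAP and TAZ with TEAD factors, which respond to RhoA and the actin skeleton, 9 were higher and 1 lower, with a median of 0.63. Ankrd1 (chromosome 19, 36111961 to 36120099), a nuclear and sarcomeric repeat protein, lay at 1.07 to 198 FPM with EGF (median 14.7) and 6.04 to 1124 FPM with EGF+U46619 (median 164.3). Ankrd1 was higher in 6 of 6 mice, but mouse 5 was high and mouse 4 low in both groups, so they overlapped. Ankrd1 had a log2-fold change of 3.42 ± 0.70 (SE, FDR = 0.00121). Ccn2, for connective tissue growth factor, lay at 208 to 3279.7 FPM with EGF (median 1223) and 561 to 6241 FPM with EGF+U46619 (median 4775). Mice 1, 2 and 3 were low with EGF, and mouse 3 was the lowest with EGF+U46619. Ccn2 had a log2-fold change of 1.97 ± 0.48 (SE, FDR = 0.00480), and ceased to be a DEG without mouse 1 (1.74). Ccn1 (1.38), a matricellular protein of the same family, was no longer a DEG without mouse 1 (1.06) or 2 (0.99). Wwtr1, the gene of TAZ, was lower (−0.33) and was no DEG without mouse 1 (−0.29), 2 (−0.25), 4 (−0.33) or 5 (−0.34). The count of higher genes was 4 without mouse 1 and 5 without mouse 2, and that of lower genes 0 without mouse 1, 2, 4 or 5.

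The promoters of these genes were searched for GGAATG, the core letters bound by TEAD factors, on both strands in the 250 bases before the gene's start (RefSeq, GRCm38.p6). Of 20 genes measured, 12 had an entry, 7 of these held the motif and 4 of the 5 higher genes did, against 12.6% of all 27025 promoters of this length. That of Ccn1 (chr3:145649986-145650235, minus strand) is shown 5′ to 3′ with the motif, or its reverse complement CATTCC, in capitals, as the first listed member. Gene positions in this text come from GENCODE, where the window before the RefSeq start of Ankrd1 lies within the gene. The Ankrd1 window is therefore not shown, but it is counted among the 7 and the 4. Matches of letters are a description and not evidence of binding.
Ccn1: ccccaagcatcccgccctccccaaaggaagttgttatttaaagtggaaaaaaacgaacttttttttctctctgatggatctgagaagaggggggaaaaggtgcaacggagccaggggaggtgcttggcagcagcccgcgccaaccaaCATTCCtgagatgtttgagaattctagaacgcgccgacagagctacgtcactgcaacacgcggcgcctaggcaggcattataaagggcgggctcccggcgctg
The CArG box of serum response factor was found in 6 of 21 promoters of the contractile list and in 1 of 6 higher genes with an entry, against 1.4% of all promoters.

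The list of AP-1 and EGR factors, which also holds other early-response genes, was higher in part after 24 h. Of its 17 genes that could be called, 8 were higher and 0 lower, with a median of 0.58. Egr1, Egr2 and Egr3 were not among the higher ones. Maff, a small MAF factor, lay at 17.8 to 271 FPM with EGF (median 107) and 75.6 to 583 FPM with EGF+U46619 (median 194). Maff was higher in 6 of 6 mice with overlapping groups and had a log2-fold change of 1.25 ± 0.27 (SE, FDR = 0.00180). Ier3, an early-response gene, had one of 1.20. Fosl1, a partner of JUN, had a log2-fold change of 1.79 and was no longer a DEG without mouse 1 (1.62), 2 (1.46), 4 (1.74) or 5 (1.79). Jun had one of 0.72 and was no DEG without mouse 1 (0.71), 2 (0.49), 4 (0.72) or 5 (0.75). Fos (0.21) and Egr1 (−0.79, FDR = 0.0686 from edgeR and 0.0419 from DESeq2) were not DEG. The count of higher genes was 3 without mouse 1, 2 or 4 and 5 without mouse 5, and that of lower ones was 2 without mouse 3.

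**Figure D3:**
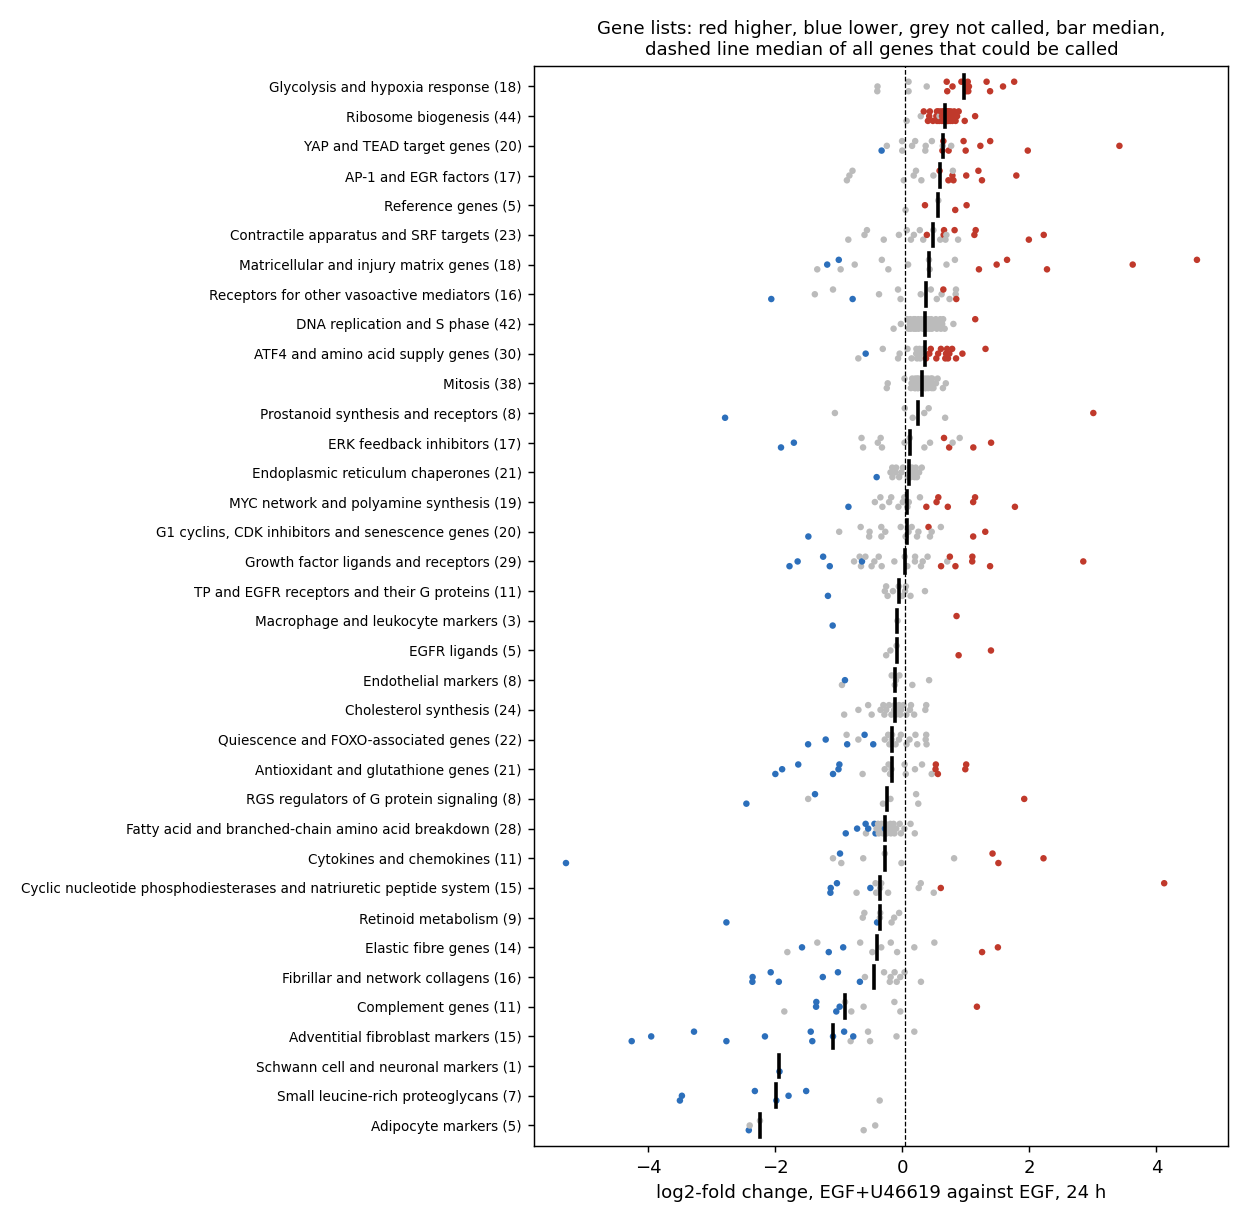
Log2-fold change of EGF+U46619 against EGF after 24 h (horizontal axis) for the genes of each list that could be called, whose number stands after the list's name. Red points were higher, blue points lower and grey points not DEG, black bars are list medians, which run from −2.24 for adipocyte markers (−0.88 without mouse 6, where small proteoglycans are lowest) to 0.97 for glycolysis and the hypoxia response, and the dashed line is the median of all genes, 0.04.

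Of 18 matricellular and injury-related matrix genes that could be called, 6 were higher and 2 lower, the latter near the 8.81% of lower DEG among all genes, with a median of 0.42, and 0.23 with a minimum of 10 counts. Plaur, the urokinase receptor, lay at 10.9 to 76.2 FPM with EGF (median 43.3) and 94.9 to 243 FPM with EGF+U46619 (median 184.2). Plaur levels in the groups did not overlap, and its log2-fold change was 2.28 ± 0.40 (SE, FDR = 0.000352). The plasminogen activators themselves were lower. Plau, urokinase, had a log2-fold change of −1.003 and was no longer a DEG without mouse 1 (−0.57), 3 (−1.03), 4 (−1.12) or 5 (−1.05). Plat, the tissue-type activator, had one of −1.19 and was no DEG without mouse 1 (−1.03) or 2 (−0.76). Tnc, for tenascin-C, was higher (1.65) and was no DEG without mouse 4 (1.79) or 5 (1.54). Spp1, for osteopontin, lay at 29.3 to 363 FPM with EGF (median 117) and 13.9 to 531 FPM with EGF+U46619 (median 340.3). With a log2-fold change of 0.83 ± 0.67 (SE, FDR = 0.434), higher in 4 of 6 mice, it was not a DEG. Fn1, fibronectin, the most abundant member, lay at 0.09 and was not a DEG. The lower genes numbered 0 without mouse 1, 1 without mouse 2, 3, 4 or 5 and 4 without mouse 6.

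Collagen genes were lower or not DEG. Of 16 that could be called, 7 were lower and 0 higher, with a median of −0.44. Col6a1, for a chain of collagen VI, lay at 676 to 6505 FPM with EGF (median 2556) and 225 to 1781 FPM with EGF+U46619 (median 412). Col6a1 was lower in 6 of 6 mice, and the groups overlapped through mouse 3, whose EGF+U46619 culture lay above the EGF cultures of mice 4, 5 and 6. Col6a1 had a log2-fold change of −2.36 ± 0.37 (SE, FDR = 9.12e-05). Col6a2 (−2.36) and Col3a1 (−2.07), the latter for the fibrillar collagen III, were lower in 6 of 6 mice too. Col1a2 (−0.67), for a chain of collagen I, was no longer a DEG without mouse 1 (−0.69), 2 (−0.52), 4 (−0.77) or 5 (−0.51), and Col1a1 (−0.20) was not one. The count of lower collagens was 4 without mouse 1. Of 7 small leucine-rich proteoglycans, which bind collagen fibrils, 6 were lower and 0 higher, with a median of −1.99, and −1.17 without the block. Ogn, for osteoglycin, lay at 26.1 to 135 FPM with EGF (median 60.0) and 7.02 to 20.6 FPM with EGF+U46619 (median 9.43). Ogn levels in the groups did not overlap, and the log2-fold change was −2.32 ± 0.42 (SE, FDR = 0.000454). Dcn, decorin, had a log2-fold change of −1.99 and was no DEG without mouse 1 (−1.57) or 2 (−1.29). Prelp, the most abundant of them, had one of −1.79 and was no DEG without mouse 1 (−1.57) or 5 (−1.64). The proteoglycans summed to 728 to 1518 FPM with EGF (median 1266) and 98.8 to 1315 FPM with EGF+U46619 (median 428), and with EGF+U46619 mice 1 and 2 were the lowest and mouse 6 the highest. The count of lower proteoglycans was 3 without mouse 1.

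Among 14 genes of elastic fibres (median −0.40), 2 were higher and 3 lower. Ltbp1, which encodes a protein that holds latent TGF-β in the matrix, was higher (1.503). Ltbp2 (1.25) was higher and was no DEG without mouse 1 (1.13), 2 (0.80), 4 (1.37) or 5 (1.45). Efemp1 (−1.58), Fbln1 (−1.16) and Emilin1 (−0.93), for glycoproteins of the fibres, were lower. Eln, elastin, lay at 2.65 to 145 FPM with EGF (median 36.9) and 0.614 to 348 FPM with EGF+U46619 (median 6.75). It varied widely among the mice and, with a log2-fold change of −1.34 ± 0.58 (SE, FDR = 0.114), was not a DEG. The higher genes numbered 1 without mouse 1, 2, 4 or 5, and the lower ones 7 without mouse 6. Of 11 complement genes (median −0.90), 4 were lower and 1 was higher. C1ra (−1.36) and C1s1 (−1.36), the proteases of the first complement component, were lower in 6 of 6 mice. Serping1 (−1.04), their inhibitor, was no DEG without mouse 1 (−1.04), 2 (−0.92), 4 (−1.05) or 5 (−1.01). C2 (−0.99) was no DEG without mouse 1 (−0.93), 2 (−0.74), 4 (−1.05) or 5 (−1.07). Cd59a, a membrane inhibitor of complement, was higher (1.17) and no DEG without mouse 1 (0.85), 2 (0.86), 3 (1.25) or 5 (1.25). The lower complement genes numbered 2 without mouse 1, 2, 4 or 5 and 7 without mouse 6, and the higher ones 0 without mouse 1, 2, 3 or 5.

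Of 15 markers of adventitial fibroblasts that could be called, 10 were lower (7 without mouse 4 or 5) and 0 higher, with a median of −1.09, and −0.55 with a minimum of 10 counts. In bulk cultures, fewer cells of a type and less RNA per cell cannot be told apart. Scara5 lay at 2.22 to 53.7 FPM with EGF (median 12.98) and 0.453 to 10.1 FPM with EGF+U46619 (median 0.877). Scara5 levels in the groups overlapped through mouse 3, which held more than the EGF cultures of mice 4, 5 and 6 also after U46619. Scara5 had a log2-fold change of −3.28 ± 0.52 (SE, FDR = 0.000102). Pdgfra, the receptor that marks fibroblasts, lay at 172.6 to 379.6 FPM with EGF (median 297) and 90.8 to 238 FPM with EGF+U46619 (median 131). Pdgfra was lower in 6 of 6 mice with overlap, and its log2-fold change was −0.92 ± 0.21 (SE, FDR = 0.00277). Pi16 (−1.44) was no longer a DEG without mouse 1 (−1.13), 2 (−1.06), 3 (−1.65), 4 (−1.52) or 5 (−1.60). The list summed to 1727, 1224, 1728, 1574, 2157 and 1735 FPM with EGF and to 1290.4, 595, 1325, 1089, 1326 and 1794 FPM with EGF+U46619 in mice 1 to 6. Mfap5, its most abundant gene, was not a DEG (0.19), and Dpep1, Clec3b and Pcolce2 are among the genes at 0. A part of fibroblasts in the change of the collagen, proteoglycan and complement genes was not tested.

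RNA of other cell types was found at levels that differed widely among the mice. Endothelial markers, 8 of which could be called, summed to 10.03, 7.73, 52.5, 797, 463 and 2338 FPM with EGF and to 4.72, 8.18, 53.6, 678, 408 and 2869 FPM with EGF+U46619 in mice 1 to 6. Mouse 6 was thus the highest and mice 1 and 2 the lowest, with Pecam1 as the most abundant gene and Cdh5 not measured. Cldn5, of endothelial junctions, was the only DEG among them, lower (−0.91), and was no DEG without mouse 2 (−0.84), 4 (−0.95) or 5 (−0.67). The number of lower endothelial markers was 0 without mouse 2, 4 or 5. Adipocyte markers, 5 of which could be called (median −2.24, and −0.55 with a minimum of 10 counts, −0.55 with only the compared groups and −0.88 without mouse 6), summed to 39.01, 27.4, 26.8, 52.2, 108 and 2142 FPM with EGF and to 27.1, 21.6, 25.9, 48.2, 54.2 and 221 FPM with EGF+U46619. Mouse 6 again stood above the rest, with Fabp4 as the most abundant gene. Adipoq was lower (−2.42) and was no DEG without mouse 3 (−2.34), 5 (−2.68) or 6 (−1.75), so the lower adipocyte markers numbered 0 without mouse 5 or 6. Of 9 macrophage and leukocyte markers, 3 could be called, Csf1r was higher (0.85) and Lyz2, the most abundant, lower (−1.10). They summed to 63.2, 110.3, 51.1, 93.2, 43.7 and 19.8 FPM with EGF and to 26.2, 41.2, 46.2, 64.01, 43.8 and 23.5 FPM with EGF+U46619, and Ptprc, the pan-leukocyte marker, was at 0 in all 12 libraries. Of 7 Schwann cell and neuronal markers, only S100b could be called, and it was lower (−1.95), though no DEG without mouse 2 (−1.76) or 4 (−1.91). This list summed to 14.6, 16.1, 1.84, 8.85, 2.73 and 4.91 FPM with EGF and to 0.494, 2.86, 1.43, 3.32, 0.359 and 3.15 FPM with EGF+U46619, and Sox10 lay under 1 FPM in every culture. Without mouse 6, whose cultures held most endothelial and adipocyte RNA, 2075 genes were DEG, and 1735 of the 1932 were among them. That fit still held the endothelial RNA of mice 4 and 5, and a part of these cells in the results was not tested.

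The list of glycolysis, which also holds Bnip3 and Vegfa of the hypoxia response, had the highest median of the 36 lists. Of 18 genes that could be called, 13 were higher and 0 lower, with a median log2-fold change of 0.97, and without Bnip3 and Vegfa 11 of 16 were higher. Hk2, the hexokinase that begins the pathway, lay at 10.9 to 68.6 FPM with EGF (median 25.6) and 42.2 to 204 FPM with EGF+U46619 (median 83.4). Hk2 was higher in 6 of 6 mice, and the groups overlapped because mouse 5 was high with EGF and mice 3 and 6 responded least. Hk2 had a log2-fold change of 1.76 ± 0.40 (SE, FDR = 0.00298). Eno1, enolase, the most abundant of the list, lay at 391 to 1211 FPM with EGF (median 846) and 1382 to 2317 FPM with EGF+U46619 (median 2083). Eno1 levels in the groups did not overlap, with a log2-fold change of 1.32 ± 0.26 (SE, FDR = 0.000804). Slc2a1 (1.38), the glucose carrier GLUT1, and Slc16a3 (1.58), a lactate carrier, were higher in 6 of 6 mice. Hk1, the other hexokinase, was not a DEG (0.10). The list summed to 3556 to 6438 FPM with EGF (median 5205) and 7067 to 12406 FPM with EGF+U46619 (median 9036). It held 11 to 14 higher genes without 1 mouse and 3 without the block, and the count of lower ones was 1 without mouse 6. The letters ACGTG, the core of the site of hypoxia-inducible factors and part of the E box CACGTG, were found on either strand in 8 of 19 promoters of the list, Bnip3 included, and in 7 of 13 higher genes, against 16.6% of all promoters. Slc2a1 is counted among these, although 34 bases of its window lie in an untranslated region of GENCODE. The promoter of Hk2 (chr6:82774455-82774704, minus strand) is shown 5′ to 3′ with ACGTG or its reverse complement CACGT in capitals, since its enzyme begins the pathway.
Hk2: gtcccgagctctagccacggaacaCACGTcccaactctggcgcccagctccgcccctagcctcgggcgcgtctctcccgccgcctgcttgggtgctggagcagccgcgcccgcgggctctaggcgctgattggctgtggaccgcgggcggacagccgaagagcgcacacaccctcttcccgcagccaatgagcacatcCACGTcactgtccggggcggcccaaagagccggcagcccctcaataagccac

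Of 5 genes often used as references, among them Gapdh and Eef2, which the study used in PCR, 3 were higher (median 0.56, and 0.35 without mouse 2). Gapdh, a glycolytic enzyme, lay at 86.9 to 246 FPM with EGF (median 154.6) and 211 to 369.9 FPM with EGF+U46619 (median 299.9). Gapdh was higher in 6 of 6 mice with overlapping groups, and its log2-fold change was 1.01 ± 0.22 (SE, FDR = 0.00230). Hsp90aa1 (0.83) was no longer a DEG without mouse 2 (0.70) or 5 (0.82), and Hsp90ab1 (0.35) was none without mouse 2 (0.35), 4 (0.30) or 5 (0.30). Eef2 (0.05), the most abundant, and Actb (0.56) were not DEG. The higher reference genes numbered 1 without mouse 2 or 5.

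Genes for the breakdown of fatty acids and branched-chain amino acids in mitochondria were lower in part. Of 28 that could be called, 7 were lower and 0 higher, with a median of −0.27. Aldh6a1, of valine breakdown, had a log2-fold change of −0.89 and was no DEG without mouse 5 (−0.85). Acaa2 (−0.71), a thiolase, was no DEG without mouse 1 (−0.62), 2 (−0.60), 4 (−0.77) or 5 (−0.79), and Acadsb (−0.58), of isoleucine breakdown, was none without mouse 2 (−0.54) or 4 (−0.53). Cpt1a, which admits fatty acids to mitochondria, was not a DEG (−0.25). The lower genes numbered 3 without mouse 1, 2, 4 or 5. Antioxidant genes split into 5 higher and 6 lower of 21 (median −0.17, and −0.10 with a minimum of 10 counts, −0.11 without the block, −0.09 without mouse 1 and −0.09 without mouse 2). Txnrd1, thioredoxin reductase, lay at 159.5 to 255 FPM with EGF (median 210.4) and 276 to 556 FPM with EGF+U46619 (median 423). Txnrd1 levels in the groups did not overlap, with a log2-fold change of 1.004 ± 0.17 (SE, FDR = 0.000284). Gstt1, a glutathione transferase, lay at 25.4 to 57.998 FPM with EGF (median 33.7) and 2.26 to 19.6 FPM with EGF+U46619 (median 8.55). These groups did not overlap either, with a log2-fold change of −2.002 ± 0.42 (SE, FDR = 0.00152). Gclm (0.53), of glutathione synthesis, was higher, as were Srxn1 (0.56, no DEG without mouse 2 (0.51), 4 (0.46) or 5 (0.45)) and Prdx6 (0.52, no DEG without mouse 2 (0.48), 4 (0.44), 5 (0.45) or 6 (0.51)), while Gstm1 (−1.64) and Sod3 (−1.89), the extracellular superoxide dismutase, were lower. Hmox1, heme oxygenase, was higher (0.99) and no DEG without mouse 4 (0.73) or 5 (0.78). The higher antioxidant genes numbered 3 without mouse 2 and 2 without mouse 4 or 5. Retinoid genes gave 0 higher and 2 lower of 9 (median −0.35, and −0.17 without the block), Adh1 (−2.77), a dehydrogenase of retinol, and Rxra (−0.40), which was no DEG without mouse 1 (−0.34), 2 (−0.34), 5 (−0.42) or 6 (−0.37). The count of lower retinoid genes was 1 without mouse 1, 2 or 5. In cholesterol and fatty acid synthesis, 0 of 24 genes were DEG, where 0 passed in edgeR alone, 1 in DESeq2 alone and 1 had an unadjusted p under 0.05 in edgeR. The median of this list per mouse lay between −1.21 and 1.02, above 0 in 3 mice and below 0 in 3. The mice thus differed in direction, which the count does not show. The lower genes of this list numbered 1 without mouse 1 or 3.

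Nearly all measured genes of ribosome biogenesis rose. Of 44 that could be called, 41 were higher and 0 lower, with a median of 0.66, and 44 of 44 had a log2-fold change above 0. Ncl, nucleolin, the most abundant, lay at 281 to 509 FPM with EGF (median 416) and 306 to 981 FPM with EGF+U46619 (median 737). Ncl was higher in mice 1 to 5 and slightly lower in mouse 6, with overlap, and its log2-fold change was 0.81 ± 0.17 (SE, FDR = 0.00170). Nhp2, of the particles that modify ribosomal RNA, lay at 61.8 to 150.4 FPM with EGF (median 81.1) and 97.9 to 314 FPM with EGF+U46619 (median 196). Nhp2 was higher in 6 of 6 mice with overlap, with a log2-fold change of 1.14 ± 0.25 (SE, FDR = 0.00209). Rrp12 had one of 0.98. Npm1 (0.60), nucleophosmin, was no DEG without mouse 2 (0.52) or 5 (0.58), Fbl (0.67), fibrillarin, was none without mouse 2 (0.61) or 4 (0.59), and Nop58 (0.89) was none without mouse 2 (0.72) or 5 (0.93). The list summed to 2177 to 3612 FPM with EGF (median 2714) and 2472 to 5635 FPM with EGF+U46619 (median 4843), and its median per mouse lay between 0.21 and 1.06. The count of higher genes was 19 without mouse 2 and 27 without mouse 4, and it was 2 without the block. The E box CACGTG, bound by MYC, was found in 3 of 37 promoters of the list and in 2 of 34 higher genes, against 6.05% of all promoters.

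Of 19 genes of the MYC network and of polyamine synthesis, 7 were higher and 1 lower. Myc, a driver of ribosome production, lay at 21.3 to 108 FPM with EGF (median 41.3) and 57.6 to 118 FPM with EGF+U46619 (median 99.4). Myc was higher in 6 of 6 mice, and the groups overlapped through mouse 3, which was high with EGF. Myc had a log2-fold change of 1.11 ± 0.24 (SE, FDR = 0.00178). Odc1, the first enzyme of polyamine synthesis, lay at 76.0 to 282 FPM with EGF (median 143) and 180.7 to 536 FPM with EGF+U46619 (median 386). Odc1 was higher in 6 of 6 mice with overlap, with a log2-fold change of 1.14 ± 0.23 (SE, FDR = 0.000931). Mycl (1.77) was no DEG without mouse 1 (1.497), and Srm (0.56), spermidine synthase, was none without mouse 1 (0.55), 2 (0.55), 4 (0.45) or 5 (0.57). Mxd4, an antagonist of MYC, was lower (−0.85) and no DEG without mouse 1 (−0.69), 2 (−0.63) or 5 (−0.88). The higher genes numbered 4 without mouse 1 and 3 without mouse 2, 4 or 5, and the lower ones 0 without mouse 1, 2 or 5 and 2 without mouse 3. Of 30 genes of ATF4 and amino acid supply, 15 were higher and 1 lower, with a median of 0.35. Nars, which charges asparagine to its transfer RNA, had a log2-fold change of 0.84. Slc7a11 (1.31), the cystine carrier, was no DEG without mouse 5 (1.22), Chac1 (0.94) was none without mouse 4 (0.93) and Asns (0.61), asparagine synthetase, was none without mouse 4 (0.49). Slc1a5, a glutamine carrier, was lower (−0.58) and no DEG without mouse 2 (−0.48), 5 (−0.53) or 6 (−0.49). Atf4 itself was not a DEG (0.28). The higher genes of this list numbered 5 without mouse 2, 3 without mouse 4 and 6 without mouse 5, and the lower ones 0 without mouse 2 or 5 and 2 without mouse 4. Of 21 chaperones of the endoplasmic reticulum, 0 were higher and only Dnajb9 was lower (−0.41), which was no DEG without mouse 1 (−0.43), 2 (−0.28), 4 (−0.44) or 6 (−0.41). Their most abundant gene, P4hb, was not a DEG (0.01), and the lower ones numbered 0 without mouse 1, 2, 4 or 6.

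Few cell cycle genes were DEG. Of 42 genes of DNA replication, Orc1 was higher and 0 were lower, while 40 of 42 had a log2-fold change above 0, with a median of 0.35, and 0.23 without mouse 2. Orc1, of the origin recognition complex, had a log2-fold change of 1.15 and was no DEG without mouse 1 (1.02), 2 (0.89), 3 (1.07), 4 (1.17) or 5 (1.38). Mcm2, of the replicative helicase, lay at 64.6 to 286 FPM with EGF (median 99.2) and 86.1 to 319 FPM with EGF+U46619 (median 131). Mcm2 was higher in 6 of 6 mice with overlap and, with a log2-fold change of 0.39 ± 0.28 (SE, FDR = 0.363), was not a DEG. The higher replication genes numbered 0 without mouse 1, 2, 3, 4 or 5. Of 38 mitosis genes, 0 were DEG (median 0.32, and 0.49 without the block, 0.18 with only the compared groups, 0.17 without mouse 1, 0.12 without mouse 2 and 0.21 without mouse 3), with 0 passing in DESeq2 alone and 0 at an unadjusted p under 0.05 in edgeR. Mki67, the proliferation marker, lay at 32.4 to 150.6 FPM with EGF (median 71.0) and 22.3 to 305 FPM with EGF+U46619 (median 101.03). Mki67 was higher in 3 and lower in 3 of 6 mice, with FDR values of 0.643 from edgeR and 0.659 from DESeq2. The median over the mitosis genes per mouse lay between −0.58 and 0.997.

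Of 20 G1 cyclins, inhibitors of cyclin-dependent kinases and senescence genes, 3 were higher and 1 lower. Besides Myc these were Hmga2 (1.304), a chromatin protein, no DEG without mouse 2 (0.999), 4 (1.25) or 5 (1.24), and Mdm2 (0.41), which restrains p53, no DEG without mouse 1 (0.36), 2 (0.36), 4 (0.43) or 5 (0.40). Igfbp5 was lower (−1.48) and no DEG without mouse 1 (−1.02), 2 (−1.39), 3 (−1.29), 4 (−1.61) or 5 (−1.61). Ccnd1 (−0.27), Cdkn1a (0.10) and Cdkn2a (−0.66) were not DEG. The higher genes numbered 1 without mouse 2, 4 or 5, and the lower ones 0 without mouse 1, 2, 4 or 5, 2 without mouse 3 and 3 without mouse 6. Of 22 genes linked to quiescence and FOXO factors, 5 were lower and 0 higher, with a median of −0.17, and −0.04 without mouse 2 and −0.26 without mouse 5. Klf15, a transcription factor of quiescent smooth muscle, lay at 10.8 to 22.5 FPM with EGF (median 17.03) and 4.12 to 8.10 FPM with EGF+U46619 (median 6.39). Klf15 levels in the groups did not overlap, and its log2-fold change was −1.49 ± 0.22 (SE, FDR = 5.47e-05). Sesn1, an inhibitor of mTORC1 signaling, lay at 17.9 to 62.1 FPM with EGF (median 28.5) and 10.7 to 17.3 FPM with EGF+U46619 (median 12.2). Sesn1 levels in the groups did not overlap, with a log2-fold change of −1.21 ± 0.23 (SE, FDR = 0.000699). Txnip (−0.87), which restrains glucose uptake, was no DEG without mouse 2 (−0.79), 4 (−0.96) or 5 (−0.74). Cdkn1b (−0.46), for the inhibitor p27, was no DEG without mouse 2 (−0.39), 4 (−0.41) or 5 (−0.46), and Klf2 (−0.60) was none without mouse 1 (−0.43), 2 (−0.48) or 5 (−0.58). The lower quiescence genes numbered 2 without mouse 2 or 5 and 3 without mouse 4, and the higher ones 1 without mouse 3.

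Among 29 growth factor ligands and receptors, 7 were higher and 5 lower. Inhba, a subunit of activin, was higher (1.10), as was Fgf2 (0.83), a fibroblast growth factor. Tgfb3 (1.38) was no DEG without mouse 1 (1.22), 2 (0.95) or 4 (1.24). Gas6, a ligand of the receptor AXL and the most abundant of the list, lay at 303 to 1947 FPM with EGF (median 836) and 98.5 to 1089.9 FPM with EGF+U46619 (median 274). Gas6 was lower in 6 of 6 mice with overlap, and its log2-fold change was −1.65 ± 0.34 (SE, FDR = 0.00135). Tgfbr3, a coreceptor of TGF-β, was lower (−1.15). Igf1 (−1.25) was no DEG without mouse 1 (−1.27), Igfbp4 (−1.78), a protein that binds IGF, was none without mouse 1 (−1.57) and Pdgfrb (−0.64) was none without mouse 2 (−0.50). The higher genes numbered 4 without mouse 1 or 2, and the lower ones 3 without mouse 1. Of 11 cytokine and chemokine genes (median −0.28, and −0.47 without mouse 2, −0.17 without mouse 3 and −0.01 without mouse 5), 3 were higher and 2 lower. Csf1, the growth factor of macrophages, lay at 443 to 1264 FPM with EGF (median 844) and 593 to 3459 FPM with EGF+U46619 (median 2584). Csf1 was higher in 6 of 6 mice with overlap, and its log2-fold change was 1.42 ± 0.31 (SE, FDR = 0.00209). Il1rl1 (2.22), the receptor of interleukin 33, and Lif (1.51) were higher. Ccl11 (−5.30), eotaxin, lay under 1 FPM in every EGF+U46619 culture and was no DEG without mouse 2 (−4.22). Ccl7 (−0.98) was no DEG without mouse 1 (−1.13), 2 (−0.53), 3 (−1.06), 4 (−1.01) or 5 (−1.06), and Ccl2 (−1.09) and Il6 (0.81) were not DEG. The lower cytokine genes numbered 1 without mouse 1, 3, 4 or 5 and 0 without mouse 2.

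The list of receptors for other vasoactive mediators also holds Edn1 and Ace, which are not receptors. It gave 2 higher and 2 lower of 16 genes (median 0.37, and 0.12 without the block, 0.24 without mouse 1 and 0.22 without mouse 2). Ednra, the endothelin receptor that contracts smooth muscle, lay at 5.81 to 17.6 FPM with EGF (median 10.5) and 0.494 to 4.19 FPM with EGF+U46619 (median 3.14). Ednra levels in the groups did not overlap, and its log2-fold change was −2.07 ± 0.35 (SE, FDR = 0.000231). Lpar1 (−0.78), a receptor of lysophosphatidic acid, was lower and P2ry2 (0.64), a nucleotide receptor, higher. Adra2a (0.85) was no DEG without mouse 2 (0.87), 4 (0.57) or 5 (0.76). The higher receptors numbered 1 without mouse 2, 4 or 5, and F2r, the thrombin receptor and most abundant of them, was not a DEG (0.45). Of 15 genes of cyclic nucleotide breakdown and natriuretic peptides (median −0.35), 2 were higher and 4 lower. Nppb, for B-type natriuretic peptide, lay at 0 to 0.567 FPM with EGF (median 0.136) and 0.110 to 28.4 FPM with EGF+U46619 (median 3.04). It was under 1 FPM with EGF in all mice and highest with EGF+U46619 in mouse 2, and Nppb (log2-fold change 4.12) was no longer a DEG without mouse 2 (3.16). Pde5a (−1.13), which degrades cGMP, was no DEG without mouse 2 (−1.11), and Npr1 (−1.13), the receptor of the peptide, was none without mouse 1 (−0.61) or 2 (−0.97). Pde3a (0.60) was higher and no DEG without mouse 1 (0.63), 2 (0.50), 3 (0.46) or 5 (0.59), Pde1a (−1.03) was none without mouse 2 (−0.92), 3 (−0.89), 4 (−1.11) or 6 (−0.90) and Npr2 (−0.51) was none without mouse 1 (−0.43), 2 (−0.40), 4 (−0.51) or 5 (−0.49). The higher genes numbered 1 without mouse 1 or 5 and 0 without mouse 2, and the lower ones 2 without mouse 1 or 4 and 0 without mouse 2.

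U46619 was also added to EGF+AngII and to control cultures of the same mice, which share no library with the EGF and EGF+U46619 cultures. Added to EGF+AngII it gave 2989 DEG, 28.8% of the genes that could be called there, and added to control 4044 (38.8%). Of the 1932 DEG, 1931 had the same sign with EGF+AngII (99.9%, against 77.0% of all genes that could be called) and 1924 had it with control (99.6%, against 84.9%). With EGF+AngII, 1433 were DEG in the same direction, which are 74.2% of the 1932 and 47.9% of the 2989, and 0 in the opposite one by both tools. With control, 1704 were, 88.2% of the 1932 and 42.1% of the 4044, and 0 in the opposite one. Across genes, which are not independent replicates, the log2-fold changes had Pearson's r of 0.868 and Spearman's rho of 0.769 with those of EGF+AngII, and 0.878 and 0.875 with those of control. The count for EGF+AngII was 297 without the block, 1099 with only the compared groups in the fit and 1264 without mouse 2. The EGF+AngII+U46619 culture of mouse 3 had a TMM scaling factor of 0.646, the lowest of all libraries. Without mouse 3 the count was 3063.

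The differences between the effects of U46619 were tested in the same fit. Between EGF and control, 0 of 10511 genes passed by edgeR or by DESeq2, and 2.97% stood at an unadjusted p under 0.05 in edgeR and DESeq2 alike (3.03% in edgeR). Between EGF and EGF+AngII, 0 of 10439 passed by either tool, with 1.65% at an unadjusted p under 0.05 in both (1.66% in edgeR). So no gene was shown to respond to U46619 differently with EGF, and values side by side are descriptions. The genes of DNA replication had a median of 0.35, and 0.23 without mouse 2, of 0.40 with EGF+AngII and of 1.19 with control, where 39 of them were higher. Of the 38 mitosis genes, 8 were higher with control, near the 19% of all genes that could be called and were higher there. Their median was nevertheless 1.16 with control, against 0.32 with EGF (0.12 without mouse 2) and 0.17 with EGF+AngII. For ribosome biogenesis the medians with EGF, EGF+AngII and control were 0.66, 0.55 and 0.81, and for glycolysis 0.97, 1.07 and 1.03. Spry4 had log2-fold changes of −1.71, −1.31 and 0.05, and Plau of −1.003, −0.71 and 0.06. Klf15 had −1.49, −1.39 and −1.504.

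**Figure D4:**
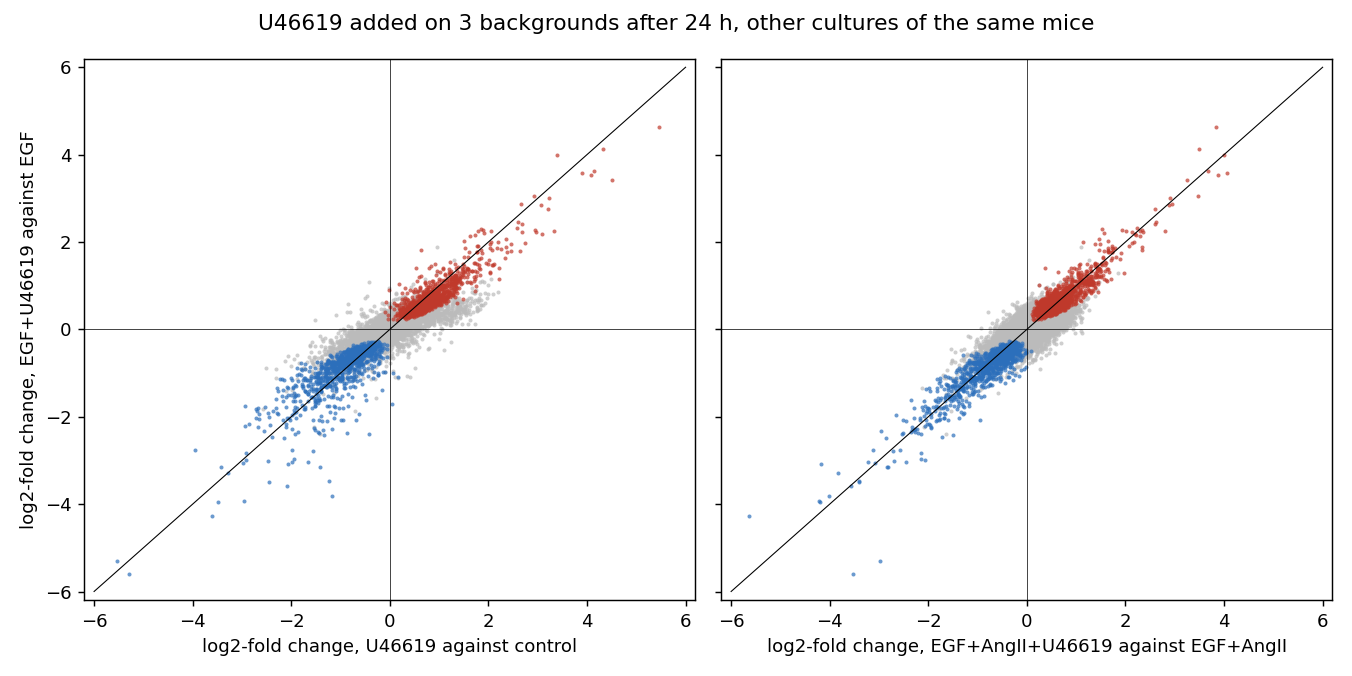
Log2-fold change of EGF+U46619 against EGF (vertical axes) and of U46619 against control (left) or EGF+AngII+U46619 against EGF+AngII (right, horizontal axes) after 24 h, 1 point per gene that could be called. Red and blue points are the 1022 higher and 910 lower DEG of EGF+U46619 against EGF, the diagonal marks equal values, and 1924 (left) and 1931 (right) of the 1932 DEG have the same sign on both axes.

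After 48 h, in cultures of other mouse labels and other sequencing batches, EGF+U46619 against EGF gave 699 DEG (6.68% of the genes that could be called; n = 5 against 10 cultures with 4 and 5 mouse labels), 380 higher (3.63%) and 319 lower (3.05%). Of the 1932 DEG of 24 h, 1808 had the same sign after 48 h (93.6%, against 74.7% of all genes that could be called). In the same direction 417 were DEG, which are 21.6% of the 1932 and 59.7% of the 699, and 0 were in the opposite one by both tools. The DEG higher after 24 h had a median of 0.31 after 48 h and the lower ones of −0.45. Abca8a had a log2-fold change of −4.81 after 48 h, Aspn of −2.91, Serpinb2 of 2.86, Ankrd1 of 0.85 and Klf15 of −0.72. The ribosome biogenesis genes had a median of 0.36 with 8 higher, and the contractile genes of −0.25 with 0 higher and 0 lower by both tools. The count of 699 was 444 without replicate 2, 233 without replicate 3 and 367 without replicate 4 of the batch, and 1098 with DESeq2 alone. The label of mouse 7 repeats in both groups and that of mouse 10 among the EGF cultures, although the methods give each replicate a mouse of its own. With the culture set as the block the count was 1905, and with only the batch that holds U46619 it was 2019. The difference between the times was not tested, since time and batch cannot be told apart.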

How the data were processed

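RNA of aVSMC was sequenced from poly(A)-enriched libraries. The authors used HISAT2 2.1.0 for alignment to mm10 and featureCounts 2.0.0 for counting, reads that align to several places included, and the deposited values are raw counts of reads per gene, without normalization. Counts were analysed here in R 4.3.3 by edgeR 4.0.16 and DESeq2 1.42.0. Tables and plots came from Python 3.11.15 (pandas 2.3.3, Matplotlib 3.10.9, NumPy 2.4.6 and SciPy 1.17.1). The filter on low counts was filterByExpr of edgeR, and 14653 genes passed it after 24 h, 15796 after 48 h and 14528 at both times. All 42 libraries of 24 h entered 1 fit with mouse and treatment as terms. An FDR is a Benjamini-Hochberg adjusted p over all genes tested, and a DEG had also to pass the filter at both times. Each SE is the absolute log2-fold change divided by the square root of edgeR's quasi-likelihood F, so it is approximate. Log2 differences per mouse used log2(FPM + 0.5). The 48 h libraries were fitted separately in the same way.

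The pairing was checked from the correlation of deviations from group means, which lay between 0.607 and 0.825 for cultures of the same mouse (median 0.789). The members and the 36 gene lists were chosen with earlier results of these data known. Genes named are Tbxa2r, Egfr, Agtr1a, Spp1, Klf15 and the 5 reference genes, the 12 DEG that rose most and the 12 that fell most among those changed the same way in 6 of 6 mice, and, per list, the first 3 genes as written, up to 3 DEG with the largest increase and 3 with the largest decrease, the most abundant gene and each member of a count of 5 or fewer. Marker genes that are at 0 are named besides. Some results for single genes are not reported here. Alternatives were 1 tool in place of both, a likelihood ratio test in edgeR, the size factors of DESeq2 in place of TMM, no FPM minimum, no filter or a minimum of 10 counts in every library, the filter at 24 h only, no block, a fit of the compared groups alone, and fits that left out 1 mouse. For 48 h they were each tool alone, 1 batch alone, the culture set as the block and leaving out each replicate. Chromosomes 9, X, Y, the mitochondrial chromosome and the end of chromosome 8 were left out because all their genes are at 0.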

Additional observations from a re-analysis of the deposited data

Results flagged for a closer look

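In 316 sets of 6 values, 1 per mouse, the value of 1 mouse lay far from the other 5 in 25, where chance alone flags about 1 in 20 sets. Mouse 2 accounts for 15 of the 25, mouse 3 for 4, mouse 6 for 3, mouse 1 for 2, mouse 4 for 1 and mouse 5 for 0. Mouse 2 stood apart by its log2 difference between EGF+U46619 and EGF, upward for Crct1 (6.01), Dusp1 (2.00), Jun (1.92) and Fos (1.59), and downward for Mgam (−6.31), Efemp1 (−3.88), Igf1 (−3.37), Ccl7 (−2.84), C1s1 (−2.45), C1ra (−2.42) and Dnajb9 (−1.06). Its level of Mgam with EGF, 43.2 FPM, was also apart. So were its median log2 differences over the AP-1 and EGR factors (1.53), the genes of DNA replication (0.96) and the RGS genes (−0.93).

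Mouse 1 stood apart by its log2 difference for Plau (−2.99) and Hspa5 (0.62), and mouse 4 for Asns (1.22). In mouse 3 the levels with EGF of Dock10 (0.189 FPM) and Sult1a1 (0.520 FPM) were far below the others, and those with EGF+U46619 of Scara5 (10.1 FPM) and Plxdc1 (4.74 FPM) far above. Mouse 6 stood apart by its log2 difference for C4b (0.49) and Npr2 (0.39) and by its median over the adipocyte markers (−3.36). The causes were not tested.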

How the results depend on the processing

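The count of 1932 DEG lay within 1.5 times its value with 1 tool in place of both, a likelihood ratio test in edgeR, the size factors of DESeq2, other FPM and count minimums and only the compared groups in the fit, from 1467 with no filter on low counts to 2311 with DESeq2 alone. Without the block it was 105 (70 higher, 35 lower). The lists of contractile genes, collagens, YAP and TEAD targets and AP-1 and EGR factors then held 0 DEG. So did those of the MYC network, of ATF4 and amino acid supply and of fatty acid and branched-chain amino acid breakdown. Leaving out 1 mouse gave 723 to 2752 DEG, 376 to 1505 higher and 347 to 1247 lower. For U46619 added to EGF+AngII the count was 297 without the block, 1099 with only the compared groups in the fit and 1264 to 3063 without 1 mouse. Both tests of a difference gave 0 DEG in every setting. After 48 h the count was 1098 with DESeq2 alone, 2019 with only the batch that holds U46619, 1905 with the culture set as the block and 233 to 652 without 1 replicate. The causes of these shifts were not tested.

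The 144 DEG chosen by the naming rules were followed with the size factors of DESeq2, both other count filters, only the compared groups, no block and without each mouse. All kept their sign wherever they were fitted, but only 107 of them had a fit with a minimum of 10 counts and 140 with only the compared groups. Of the 107 with every fit, 82 were DEG in each setting with the block and all mice. Of the 144, 74 were DEG in all fits that left out 1 mouse and 18 without the block. Of 36 list medians, 4 moved by more than their SD over mice in some setting. With n = 6 cultures and FPM under 1 in many cultures, folds of genes near 0 such as Serpinb2, Inmt and Nppb are imprecise at this depth.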
